A study of Mus musculus with 3 samples.

Results

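Scavenger receptors are described here through 10 genes listed by name, Marco, Msr1, Cd36, Mrc1, Scarb1, Scarb2, Cd68, Stab1, Olr1 and Cd163, out of 55536 Ensembl genes in the deposited tables. Each symbol was matched to its gene identifier through the annotation carried in the transcript tables, and all 10 were found. The genes were read in 3 libraries of cytosolic RNA from mouse bone marrow-derived macrophages, the labelled biological replicates 1, 2 and 3 of a single group. The C57BL/6J cells had received Lipid A at 100 ng/ml during 12 h, a washout of 12 h, and a second dose of 100 ng/ml for 50 min. Lipid A, the membrane anchor of bacterial lipopolysaccharide, is sensed by Toll-like receptor 4. Total RNA was depleted of ribosomal RNA, with 1 µg as starting material and fragments of 250 to 400 bases. All 3 samples share 1 donor entry but are separate biosamples, sex and age were not collected, and no other treatment group was analysed here. The spread between replicates is thus that between cultures sharing a donor entry. No nuclear fraction was analysed here, although the nuclear RNA Malat1 was read in all 3 libraries. What follows therefore gives levels, transcript forms and spread within 1 state, and no response to Lipid A.

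Scavenger receptors are membrane proteins of unrelated structure that bind polyanionic and modified ligands, such as oxidised low-density lipoprotein, bacterial surface molecules and debris of dead cells. Macrophages use them to clear particles and to take up lipid, and several also work as co-receptors in innate recognition. Marco and Msr1 are collagenous class A receptors, Cd36, Scarb1 and Scarb2 form the class B family, Cd68 and Olr1 are the class D and class E receptors, Stab1 is a large multidomain receptor, Mrc1 is the mannose receptor, and Cd163 takes up haptoglobin-bound haemoglobin.

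All 12 macrophage markers, Cd68 among them, reached 1 TPM (a level per transcript length, scaled to a fixed library sum) in each of the 3 libraries, led by Lyz2 at a mean TPM of 3417. Of markers of other cells, the 6 adipocyte genes were at 0, no B cell, T and NK cell or fibroblast gene reached that level, and the endothelial genes Kdr (6.11 ± 5.38, SD, n = 3) and Stab2 (4.54 ± 1.32), the platelet gene Pf4 (102), the neutrophil genes Csf3r (33.4) and S100a9 (5.41) and the dendritic cell gene Ccr7 (1.12) were the highest of their lists. The B cell gene Cd79b had 1.16, 1.89 and 0.94 TPM, below 1 in replicate 3 only. Next after Pf4 and Ccr7 in their lists were Ppbp (0.167) and Itgax (0.387). Library depth was 47972062 to 54409436 expected counts. In these bulk samples, fewer cells of a type and less RNA per cell cannot be told apart. Protein-coding genes took 33.3%, 26.1% and 37.0% of TPM in replicates 1, 2 and 3 and RNAs of other classes the rest, so TPM of coding genes runs low in replicate 2. Replicates are for this reason compared in CPM (expected counts relative to TMM-scaled library size), and genes within a library in TPM. The nuclear RNA Malat1 had 5966, 3089 and 1426 CPM.

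Of the 10 receptors, 8 were expressed, here defined as 1 TPM or more in each library. Among all Ensembl genes 17.2% met this definition, and among protein-coding genes 41.1% did. Olr1 and Cd163 did not. Mean TPM of the 8 ranged from 17.2 for Scarb1 to 656 for Cd68. In the second transcript table, made from the same reads, all 8 had lower mean TPM, from 6.83 for Scarb1 to 256 for Cd68. Rescaled to coding genes, Cd68 had 2040, 1715 and 2271 in the gene tables and 1898, 1651 and 2181 in that table. For Stab1 these values were 170, 198 and 164 against 102, 122 and 113. Levels below are those of the gene tables unless stated. Cd68 stood at percentile 99.5 of expressed coding genes, Marco at 95.9, Cd36 at 87.9 and Scarb1 at 68.6.

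**Figure D1:**
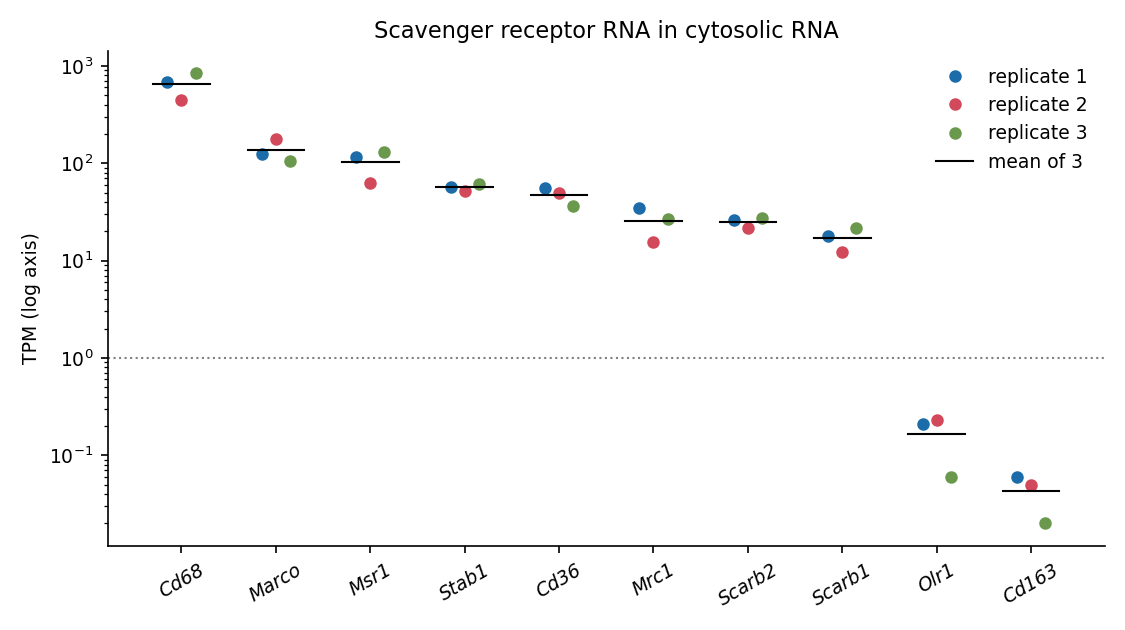
TPM of each of the 10 scavenger receptors in the 3 replicates (log axis), ordered by mean TPM, with points for replicates, bars for their mean and a dotted line at 1 TPM. Cd68 lies above all others in each replicate, 7 receptors lie between about 12 and 177, and Olr1 and Cd163 stay below 1.

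Cd68 encodes a heavily glycosylated protein of late endosomes and lysosomes that is used as a macrophage marker (ENSMUSG00000018774.13, chromosome 11, 69664213 to 69666153 on mm10, minus strand). Its TPM was 679, 447 and 840 in replicates 1, 2 and 3, a mean of 656 ± 198. In each replicate Cd68 exceeded the next receptor, Marco, by a mean of 2.25 ± 0.84 on the log2(TPM + 1) scale. Its range did not overlap that of Marco. In CPM the values were 945, 840 and 1182, lowest in replicate 2 and highest in replicate 3.

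Marco encodes a collagen-containing receptor of bacteria and inhaled or circulating particles (ENSMUSG00000026390.7, chromosome 1, 120474538 to 120505024, minus strand). Its TPM was 124, 177 and 106, a mean of 136 ± 37.1. Msr1 encodes the class A receptor of modified lipoprotein and bacterial lipid (ENSMUSG00000025044.16, chromosome 8, 39581685 to 39642673, minus strand), and its TPM was 116, 62.4 and 131, a mean of 103 ± 36.1. The order of these class A receptors was not fixed. Marco exceeded Msr1 in replicates 1 and 2 and lay below it in replicate 3, with a mean difference of 0.42 ± 0.94 in log2(TPM + 1) (exact two-sided sign-flip permutation p = 0.75). Without replicate 2 the mean difference was -0.11. Their ratio of TPM, Marco to Msr1, was 1.06, 2.84 and 0.807. In the second transcript table Marco had 68.5, 63.7 and 30.4 TPM and Msr1 86.3, 27.9 and 42.9. There Marco exceeded Msr1 in replicate 2 only, and the mean difference was 0.12.

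Cd36 and the class B receptors take up lipid. Cd36 encodes a receptor of long-chain fatty acids and oxidised lipoprotein (ENSMUSG00000002944.15, chromosome 5, 17781690 to 17888801, minus strand), with a TPM of 55.8, 49.5 and 36.4, a mean of 47.2 ± 9.88. Scarb1, the receptor of high-density lipoprotein that passes cholesterol esters (ENSMUSG00000037936.15, chromosome 5, 125277087 to 125341094, minus strand), had 17.7, 12.3 and 21.6, a mean of 17.2 ± 4.67. Scarb2 encodes LIMP-2, a protein of the lysosomal membrane (ENSMUSG00000029426.8, chromosome 5, 92441314 to 92506833, minus strand), and had 25.8, 21.5 and 27.3, a mean of 24.9 ± 3.04. Scarb2 exceeded Scarb1 in all 3 replicates, by 0.53 ± 0.21 in log2(TPM + 1), although the lowest replicate of Scarb2 lay below the highest of Scarb1. Cd36 was above both in every replicate.

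Mrc1 encodes the mannose receptor, a marker of macrophages in repair and steady state (ENSMUSG00000026712.3, chromosome 2, 14229392 to 14332057, plus strand). Its TPM was 34.5, 15.4 and 26.8, a mean of 25.6 ± 9.58, and its order with Scarb2 was not settled, with a difference of -0.03 ± 0.43 (exact two-sided sign-flip permutation p = 0.75). Mrc1 was above Scarb2 in replicate 1 and below it in replicates 2 and 3.

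Stab1 encodes stabilin-1, which clears acetylated lipoprotein and the matrix protein SPARC (ENSMUSG00000042286.13, chromosome 14, 31139013 to 31168641, minus strand). Its TPM was 56.7, 51.6 and 60.6, a mean of 56.3 ± 4.55, which gave it rank 4. That rank rests on models other than Stab1-201, the longest. In the first transcript table those other models held 76.45% ± 1.80 of Stab1 TPM, 9 retained-intron models among them. When only models with at least 50% of the longest coding sequence were summed, a choice made after seeing the data, Stab1-201 alone remained. Stab1 then had 13.9, 12.8 and 13.0, a mean of 13.2 ± 0.564, and ranked 8. Stab1 lay next to Cd36 in the first ordering, higher in all 3 replicates by 0.27 ± 0.39, and the sign turned under the second (-1.74). Nt5dc2, on the opposite strand, shares 112 bases with the 3' end of Stab1 at TPM values of 11.6, 9.65 and 10.7, and reads in the overlap cannot be assigned to a strand from the tables.

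Olr1 and Cd163 had few counts and lay below 1 TPM in every library. Olr1 encodes LOX-1, a lectin-like receptor of oxidised lipoprotein (ENSMUSG00000030162.14, chromosome 6, 129485244 to 129507165, minus strand). It had 51, 38 and 15 expected counts, or 1.00, 0.702 and 0.296 CPM, with exact Poisson 95% intervals of 0.745 to 1.32, 0.497 to 0.964 and 0.166 to 0.489. Cd163, the receptor of haptoglobin-haemoglobin complexes (ENSMUSG00000008845.9, chromosome 6, 124304656 to 124330527, plus strand), had 17, 21 and 7 counts. These are 0.334, 0.388 and 0.138 CPM, with intervals of 0.194 to 0.534, 0.240 to 0.593 and 0.0556 to 0.285. The CPM of both genes lay above the 0.0625, 0.0551 and 0.0561 CPM that a count of 0 allows in replicates 1, 2 and 3. That floor was computed on unscaled library totals, and the interval of Cd163 in replicate 3 reached below it. These intervals cover counting error only. The interval of Olr1 in replicate 3 lay below those of replicates 1 and 2.

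Over the 9 pairs of neighbours in the order, 7 kept 1 sign in all 3 replicates and 5 had overlapping ranges. The smallest p that the exact sign-flip test can give with 3 replicates is 0.25, adjusted to 0.321 over the 9 pairs by Benjamini-Hochberg, so no order of neighbours can pass 0.05.

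Whether replicates differed by more than counting error was tested for each receptor. Of 10 tested, 9 passed a Poisson heterogeneity chi-square at a Benjamini-Hochberg adjusted p of 0.05, all but Cd163 (adjusted p = 0.0632), against 70.4% of 13827 genes tested and 87.7% of genes averaging 1000 counts or more. The 8 expressed receptors passed with adjusted p values of 1.66e-13 for Scarb2 or lower, and Olr1 passed at 0.000158. At such counts most genes pass, so the size of the spread is given next.

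The biological coefficient of variation (BCV) estimates the spread between replicates beyond counting error as a share of the level. Each gene's value was moderated, that is drawn toward the trend over all genes, and is not its own measured spread alone. In CPM the mean and SD were 359 ± 165 for Marco and 170 ± 9.99 for Scarb2. The median BCV was 0.177 over the 8 expressed receptors. Over all 13827 genes tested it was 0.166, and over genes averaging 1000 counts or more it was 0.127. For all 10 receptors the median was 0.187, and its place above that of all genes tested was lost without replicate 2 (0.169 against 0.177), without replicate 3 (0.151 against 0.158) and with no minimum count (0.182 against 0.381). The median ratio of highest to lowest replicate was 1.40 for the expressed receptors and 1.18 for genes averaging 1000 counts or more. Marco had the highest BCV of the expressed receptors, 0.297, at percentile 98.5 of genes averaging 1000 counts or more. Cd36 followed at 0.225 (percentile 95.9), Mrc1 at 0.195 (92.9), Cd68 at 0.180 (89.7) and Msr1 at 0.174 (88.0). Scarb2 was the steadiest, with a BCV of 0.128 near the middle of those genes (percentile 51.6).

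**Figure D2:**
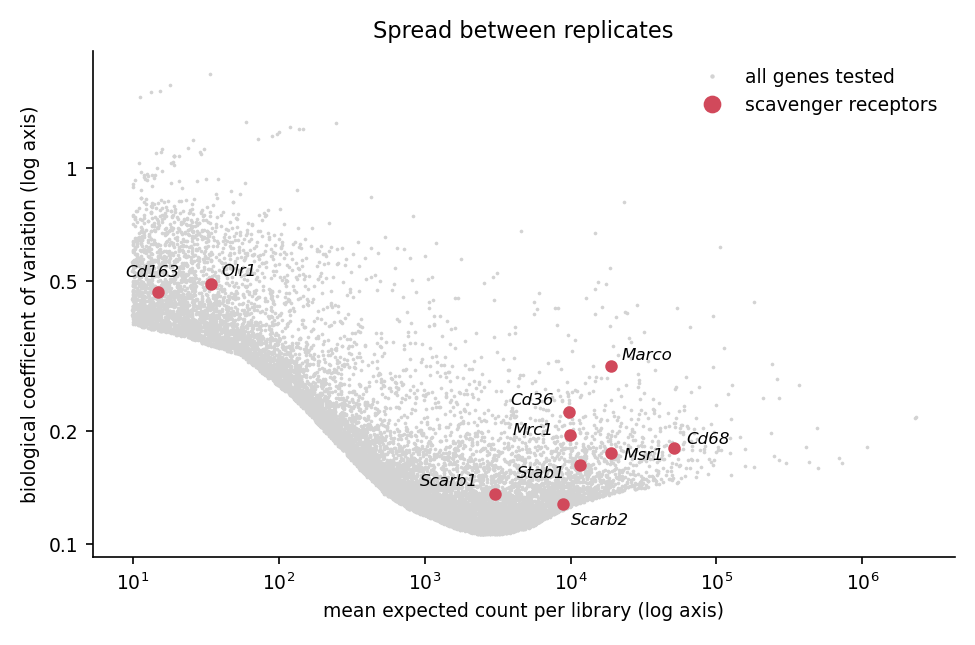
Biological coefficient of variation (log axis) against mean expected count per library (log axis) for all 13827 genes tested in grey, with the 10 scavenger receptors in red. Marco and Cd36 lie high for their count, Scarb2 (0.128) and Scarb1 (0.136) have the lowest values of the receptors, and Olr1 and Cd163 have few counts.

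Among the expressed receptors Marco differed most between replicates, with 284, 548 and 244 CPM in replicates 1, 2 and 3. Replicate 2 lay apart above the other 2 replicates, and the ratio of highest to lowest was 2.24. Replicates 1 and 3 differed by a ratio of 1.16. With a prior of 0.5 CPM, Marco was the 1 receptor of 10 with a ratio of at least 2, beside 6.78% of genes tested. Without that prior the low counts of Olr1 and Cd163 also gave ratios above 2, of 3.38 and 2.81. Replicate 2 was the highest for Marco under each scaling compared, by ratios of 1.67 in unscaled TPM to 2.37 in TPM rescaled to coding genes. Unscaled TPM of the second transcript table was not among these scalings. There Marco had 68.5, 63.7 and 30.4, highest in replicate 1.

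Cd36 had 197, 235 and 127 CPM, with replicate 3 the lowest, and Stab1 had 212, 264 and 192 CPM, with replicate 2 the highest. Scarb2 had 161, 181 and 169 CPM. These 3 genes and Marco, of the expressed receptors, were highest in replicate 2, except that in unscaled TPM Cd36 was highest in replicate 1 and Stab1 and Scarb2 in replicate 3. Msr1 had 400, 294 and 410 CPM, Scarb1 56.2, 52.4 and 68.4, and Cd68 the values given above. These 3 were highest in replicate 3 and lowest in replicate 2, except that Msr1 was highest in replicate 1 by library totals and in the second transcript table. Mrc1 had 243, 148 and 190 CPM, highest in replicate 1 and lowest in replicate 2. The class A receptors stood on opposite sides in replicate 2, with log2 deviations from the mean of the replicates of 0.70 for Marco and -0.31 for Msr1.

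**Figure D3:**
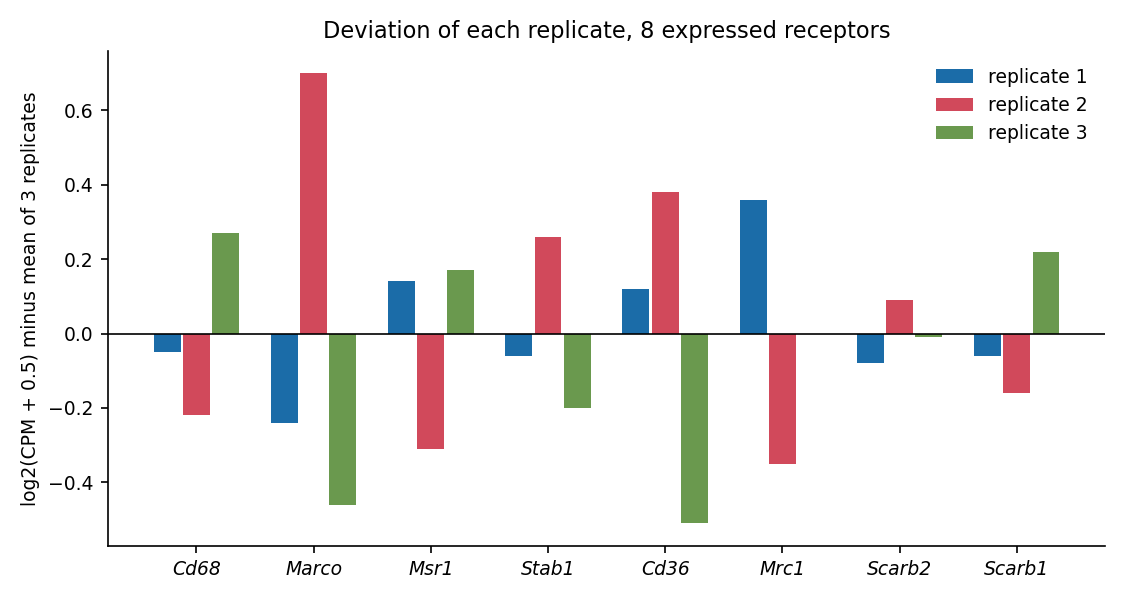
Bars show log2(CPM + 0.5) of the 8 expressed scavenger receptors in each replicate minus the mean of the 3 replicates, on TMM-scaled CPM. Marco runs from -0.46 to 0.70 and Cd36 from -0.51 to 0.38, while Scarb2 stays within -0.08 to 0.09.

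Over all 10 receptors, 2 were highest in replicate 1, 5 in replicate 2 and 3 in replicate 3, beside 29.5%, 32.4% and 38% of genes tested. In unscaled TPM the count for replicate 2 was 2, with no share over all genes given on that scale. The lowest value fell in replicate 1 for 1 receptor, in replicate 2 for 4 and in replicate 3 for 5, beside 38.2%, 29.2% and 32.6%. Some markers of other cells were also highest in replicate 2 in CPM: 3 of 4 tested neutrophil genes, 4 of 6 dendritic cell genes, 2 of 2 B cell genes, 2 of 3 platelet and erythroid genes and 2 of 6 endothelial genes. Summed over each whole list, CPM in replicates 1, 2 and 3 was 3.16, 5.32 and 2.19 for 6 B cell markers, 6.08, 7.43 and 6.54 for 6 dendritic cell markers and 0.216, 0.536 and 0.0592 for 6 fibroblast markers, each highest in replicate 2. The sums were 108, 140.0 and 159 for 8 neutrophil markers, 46.8, 50.4 and 62.2 for 6 platelet and erythroid markers, 57.0, 54.7 and 126 for 10 endothelial markers and 0.157, 0.166 and 0.316 for 6 T and NK cell markers, each highest in replicate 3. Most of the neutrophil sum was Csf3r (103.5, 134 and 155.2 CPM), and most of the platelet and erythroid sum was Pf4 (46.48, 49.57 and 61.75). Within the endothelial sum Kdr had 35.46, 18.69 and 95.36. These sums thus largely follow single genes. In TPM rescaled to coding genes the neutrophil sum was highest in replicate 2 (118, 148 and 138). The part of these markers in the deviation of Marco was not tested.

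Transcript forms were read from both transcript tables, made from the same reads and so not independent. The 10 genes have 52 annotated models, 2 to 13 per gene. The leading model was the same in both tables for 8 of 10 genes, all but Msr1 and Stab1, and held at least 50% of the gene's TPM in every replicate in 5 genes. Marco-201 held 96.3% ± 0.420 of TPM, Mrc1-201 98.0% ± 1.22, Scarb2-201 99.5% ± 0.0966 and Cd68-201 97.8% ± 0.438 (first table, SD, n = 3). Scarb1-201 held 83.4% ± 2.22.

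**Figure D4:**
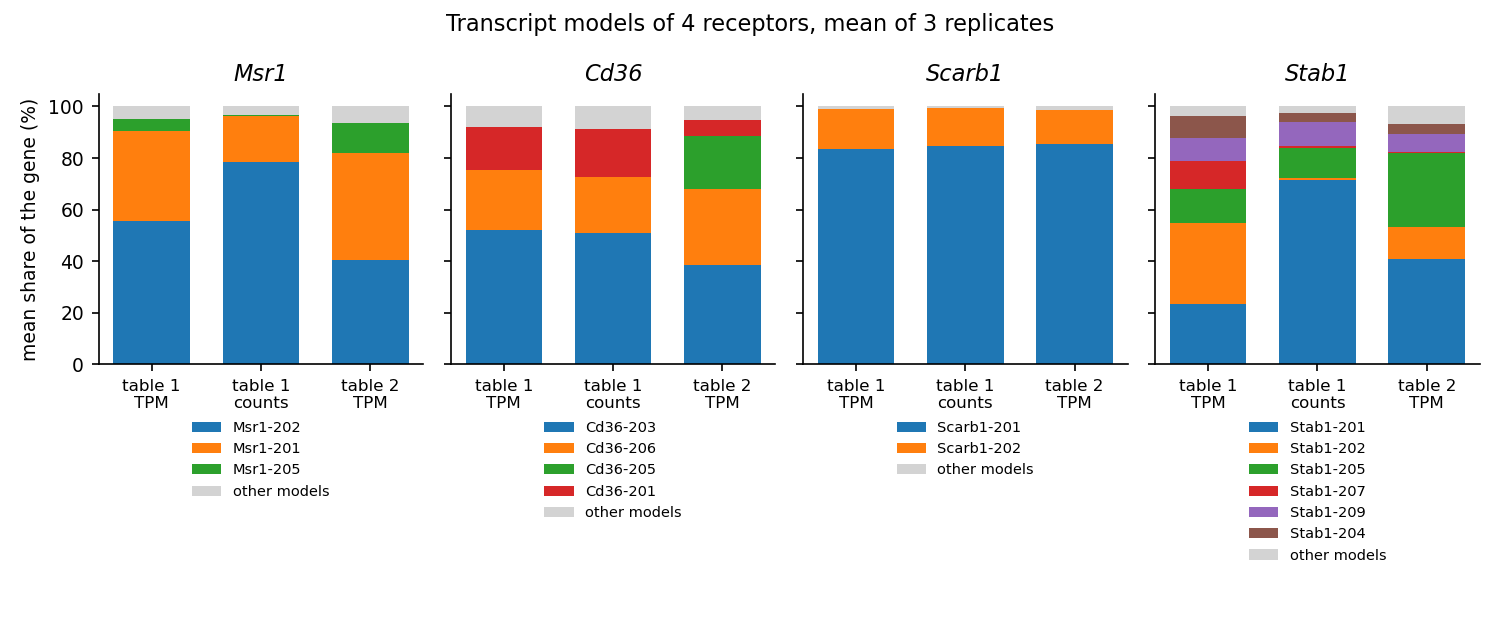
Stacked bars give the mean share (%) over 3 replicates of each transcript model of Msr1, Cd36, Scarb1 and Stab1, by TPM and by counts of the first table and by TPM of the second, with models under 5% pooled in grey. Scarb1 looks alike in all 3 bars, while the share of Stab1-201 goes from 23.6% of TPM to 71.7% of counts.

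Msr1 makes a pair of membrane receptors that differ at the C terminus: the type I form carries a cysteine-rich scavenger receptor domain and the type II form ends early. Msr1-201 codes for 458 codons and Msr1-202 for 354. Both are shown from the last 30 bases of the shared exon, in lower case, into their own next exon, in capitals, with GRCm38 positions on the minus strand, chr8:39608085-39608114 for the shared part, chr8:39589434-39589478 for Msr1-201 and chr8:39605972-39605982 for Msr1-202, where the capitals run through the stop codon.
Msr1-201: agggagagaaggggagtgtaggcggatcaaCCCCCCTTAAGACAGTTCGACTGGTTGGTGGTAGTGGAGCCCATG
Msr1-202: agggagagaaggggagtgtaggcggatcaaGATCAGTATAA
Among TPM on these 2 models, Msr1-201 held 37.1%, 34.0% and 45.2% in replicates 1, 2 and 3 in the first table, a mean of 38.8% ± 5.77. The second table gave 50.7% ± 1.76. The tables differ in this share by more than the spread between replicates, so the larger form cannot be named from these files, but both forms had reads in every replicate. Msr1-205, a noncoding model, held 4.58% ± 1.80 of the TPM of Msr1 in the first table and 11.7% ± 3.79 in the second. Msr1-201 had 3332, 2362 and 4613 expected counts, with deposited posterior SDs of 86.0, 75.8 and 88.4 reads.

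Scarb1 likewise makes SR-BI and SR-BII, which differ in the cytoplasmic C-terminal tail. Scarb1-201 codes for 509 codons and Scarb1-202, without exon 12, for 506. The capitals again mark the form's own bases after the shared exon, chr5:125283899-125283928 for the shared part, chr5:125281174-125281233 for Scarb1-201 and chr5:125277806-125277865 for Scarb1-202.
Scarb1-201: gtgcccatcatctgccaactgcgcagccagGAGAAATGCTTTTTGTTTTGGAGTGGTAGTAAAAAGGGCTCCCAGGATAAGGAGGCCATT
Scarb1-202: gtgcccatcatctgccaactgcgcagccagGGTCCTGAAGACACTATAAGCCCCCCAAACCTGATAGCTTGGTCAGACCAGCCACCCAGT
Of TPM on both, Scarb1-201 held 82.1%, 84.4% and 86.4% in the first table, a mean of 84.3% ± 2.14, and 86.6% ± 2.14 in the second. Unlike for Msr1, both tables gave the same leading form. The minor form Scarb1-202 held 17.8%, 15.3% and 13.6% of the TPM of Scarb1.

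Cd36 is transcribed from several first exons that precede a coding sequence of 1 length. The 5 models with 472 codons begin at 3 places. The distal start (first exon chr5:17888711-17888801 at its longest, models Cd36-203 and Cd36-205) held 52.2% ± 3.46 of TPM in the first table and 58.9% ± 1.90 in the second. The middle start (chr5:17849657-17849792) held 7.86% ± 1.55 and 5.28% ± 1.34. The proximal start (chr5:17835618-17835717) held 39.9% ± 4.90 and 35.8% ± 2.52, and was 45.5% in replicate 2 against 37.9% and 36.3% in replicates 1 and 3 in the first table. Both tables put the distal start first, although Cd36-205, which codes for 142 codons, was at 0 in the first table and at 20.5% ± 2.70 in the second. The RefSeq promoter window of Cd36 (GRCm38.p6, minus strand, chr5:17835897-17836146, 250 bases before the RefSeq start) lies upstream of the proximal exon. It does not adjoin that exon, which begins at 17835717 at its longest. The window is printed because the proximal start held a large share, although the distal start held more. Capitals mark the letters of the ETS core GGAAGT and the nuclear receptor half-site AGGTCA, both of which read on the opposite strand.
Cd36 promoter: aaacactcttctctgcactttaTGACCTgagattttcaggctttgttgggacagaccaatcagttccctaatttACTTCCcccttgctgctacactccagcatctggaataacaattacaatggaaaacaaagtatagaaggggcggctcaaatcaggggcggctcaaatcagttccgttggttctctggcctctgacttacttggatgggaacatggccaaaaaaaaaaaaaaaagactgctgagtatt
GGAAGT was present in 23.8% of 32851 RefSeq promoter windows of 300 bases, either strand, and in 3 of the 8 receptor windows given there (Cd36, Cd68 and Mrc1). AGGTCA was in 16.3% of all windows and in 2 receptor windows (Cd36 and Olr1). The AP-1 letters TGANTCA, the same on both strands, were in 7.81% of all windows and in those of Cd68, which holds them at 2 positions, and Olr1. TGACNNNGC was in 12.4% and in the window of Scarb2. GAGGAAGT, which contains GGAAGT, was in 3.2% of windows and CACGTG in 7.15%, and neither was in a receptor window. These are letter matches only.

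The level of Stab1 depended on how its models were weighed. Stab1-201, with 69 exons and 7713 coding bases, held 71.7% ± 0.903 of Stab1 counts but 23.6% ± 1.80 of its TPM in the first table and 40.7% ± 5.91 in the second. Stab1-202, a noncoding model of 242 bases, held 31.4% ± 4.34 of TPM with 0.632% of counts, and 12.4% ± 15.65 in the second table. Few reads on a short model thus weigh heavily in the TPM of Stab1. Stab1-205, a retained-intron model, held 13.1% ± 1.28 and 28.9% ± 3.18 in the first and second table. The short coding model Stab1-207 held 10.8% ± 6.30 of TPM in the first table and 0.556% ± 0.963 in the second. The retained-intron models Stab1-209 and Stab1-204 held 8.74% ± 2.96 and 8.62% ± 0.902 in the first.

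Models annotated as retained introns keep intron sequence, and their share of a gene's expected counts was compared between replicates. Stab1 had 27.9%, 27.6% and 24.8% of its counts on 9 such models in replicates 1, 2 and 3. Msr1 had 4.52%, 2.88% and 1.18%, Mrc1 1.23%, 0.591% and 0.353%, Scarb1 0.785%, 0.397% and 0.656%, and Scarb2 0.274%, 0.208% and 0.194%. These 5 receptors, each with a mean of at least 10 counts on such models, were all highest in replicate 1, beside 73.9% of 3756 coding genes measured, and 4 were lowest in replicate 3, beside 72.3%. Cd163 also has such a model, with 3.80, 2.40 and 0 counts, too few for a share. The median of the 3756 coding genes was 3.53%, 2.30% and 1.29%. Malat1 and mitochondrially encoded RNA (0.580%, 0.356% and 0.140% of CPM) had the same order of replicates, and their part in these shares was not tested.

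**Figure D5:**
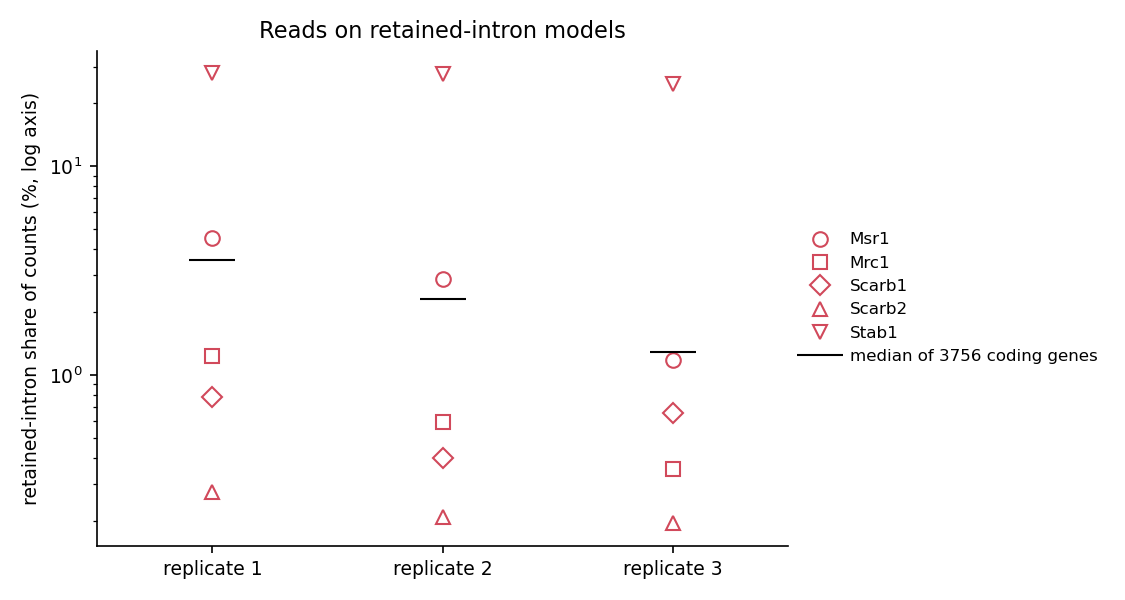
Percent of a gene's expected counts on retained-intron models (log axis) for 5 scavenger receptors in each replicate, with the median of 3756 coding genes as a bar. Stab1 lies well above the median in every replicate, Msr1 near it, and Mrc1, Scarb1 and Scarb2 below it.

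Partner genes place the receptors in their pathways. Of 20 other scavenger and endocytic receptors, 8 were expressed, 5 were listed at 0, and 9 of 10 tested passed the heterogeneity test. Of all protein-coding genes 41.1% were expressed. The test was passed by 70.4% of all genes tested and by 87.7% of genes averaging 1000 counts or more. Lrp1, the large endocytic receptor of lipoprotein remnants, had a mean TPM of 95.3 ± 14.2, Cxcl16, a membrane chemokine that binds oxidised lipoprotein, 87.1 ± 26.1, and Cd5l, a secreted scavenger receptor protein of macrophages, 89.2 ± 2.13. By mean TPM these 3 lay between Msr1 and Stab1, with all Stab1 models summed. In replicate 2 Lrp1 (79.3) and Cd5l (87.6) exceeded Msr1 (62.4). The beta-glucan receptor Clec7a had 29.7 ± 6.94, Scarf1 8.49 ± 3.48, Stab2 4.54 ± 1.32 and Colec12 1.62 ± 0.534. Stab1 thus exceeded its paralog Stab2 in every replicate, whether all Stab1 models were summed or only Stab1-201 was taken.

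Lipid uptake and storage genes, the partners of Cd36 and Scarb1, were expressed in 21 of 22 cases with a median TPM of 55.5. The heterogeneity test was passed by 20 of 21 tested. Beside each count in this paragraph stand the shares over all genes, 41.1% of coding genes expressed and 70.4% of genes tested passing. The fatty acid-binding protein Fabp5 led at 1220 ± 328, followed by Apoe at 1092 ± 215 and the lysosomal cholesterol carrier Npc2 at 307 ± 95.3. Lysosomal membrane genes, the neighbours of Cd68 and Scarb2, were expressed in 12 of 12 cases, and 11 of 12 passed. Lamp1, the lysosomal glycoprotein, stood at 635 ± 171 beside 656 ± 198 for Cd68, above Cd63 (260 ± 59.6) and Lamp2 (170 ± 48.8). In the heme and haptoglobin pathway, into which Cd163 feeds, 6 of 11 were expressed and 6 of 7 tested passed, with the ferritin chains Fth1 and Ftl1 at 18756 and 8216, and Hmox1, which breaks heme down, at 116 ± 4.07, while Cd163 itself stood at 0.0433 ± 0.0208. Of 13 C-type lectin receptors, the family of Mrc1, 12 were expressed and 11 of 13 passed, led by Clec4e at 221 ± 105, Clec4a1 at 178 ± 37.1 and Clec4a3 at 133 ± 30.2, all above the mean TPM of Mrc1.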

How the data were processed

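Per library there are a gene table and a pair of transcript tables. Expected counts per gene and transcript were deposited by the authors without normalisation. TPM was deposited by the authors over every row, tRNA and spike-in entries included. The percent of gene TPM held by a transcript is also deposited, but shares here were recomputed. The posterior SD of counts is a deposited column in reads. The mm10 assembly and GENCODE M21 come from the notes deposited with the files; aligner, quantifier and strandedness are not given in sources used here.

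Of 81881 entries, 55536 were Ensembl genes. Entries naming no gene took 0.0785%, 0.0521% and 0.0251% of counts and stayed out. Depth was 47972062, 54409436 and 53491957 counts in replicates 1, 2 and 3, with a floor of 3 counts. Expected counts were rounded for tests. Heterogeneity was tested for genes averaging 10 counts or more (chi-square, 2 degrees of freedom, TMM sizes, Benjamini-Hochberg). BCV was the tagwise value, moderated toward the trend over genes, from an intercept-only edgeR 4.0.16 fit in R 4.3.3. No count test between groups was possible with 1 group. Scripts were tested on simulated data. Alternatives were DESeq2 1.42.0 size factors, library totals, rescaled TPM, other minimums and pseudocounts, the second transcript table, and leaving out each replicate. Named genes were all 10 members and the 3 highest of each other list by mean TPM. To these came every other scavenger receptor with a mean TPM of at least 1, and models with a share of at least 5%. Up to 2 of the highest markers of each other cell type were named. Malat1 and Nt5dc2 were added after values were seen. Some genes of these lists are not reported here. The members and lists were chosen with earlier results of these data known. Promoter windows are from RefSeq (GRCm38.p6), where 8 of 10 members matched by symbol.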

Additional observations from a re-analysis of the deposited data

How the results depend on the processing

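No paired analysis was possible because the labels give 1 group. With unscaled TPM in place of CPM, the receptors highest in replicate 2 numbered 2 in place of 5, and those highest in replicate 3 numbered 5 in place of 3. With TPM rescaled to coding genes, those highest in replicate 1 numbered 1 in place of 2. The shares over all genes given above are for CPM. None is given for these TPM scales, so these counts cannot be set against a background. By expected counts, 8 genes in place of 5 had a leading model with at least 50%. Neighbour differences in log2(TPM + 1) that changed sign were these: Marco minus Msr1 ranged from -0.11 to 0.79 when a replicate was left out, Mrc1 minus Scarb2 from -0.24 to 0.19, and was 0.01 in the second transcript table, and Stab1 minus Cd36 was -0.62 in that table and -1.74 over models with at least 50% of the coding sequence, an alternative added after seeing the data. The cause was not tested, except that the last leaves out the short Stab1 models. The heterogeneity count, 9 in the report, was 10 without replicate 1 and by library totals, and 7 without replicate 2. It was 8 without replicate 3 and with a minimum mean count of 100, which leaves 8 receptors. The shares of all genes passing under these settings are not given. The changes in count therefore cannot be read as particular to the receptors. Depth limits Olr1 and Cd163, whose transcript shares rest on few reads and are not given.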
